A study of Mus musculus with 6 samples.

Results

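Across the pancreas arrays of 6 mouse offspring samples, 5113 autosomal probes carried little immunoprecipitated DNA relative to input on every array. They were chosen by their measured values: the input spot was well above background and neither dye was flagged as a non-uniformity outlier on any of the 6 arrays, and the log2 ratio of MeDIP over input was at most -1.5 on each array, with 0 set at the array median of non-control probes. Of 167117 autosomal probes, 55576 were left out for a dim input spot and 13221 for an outlier flag, so 98320 were eligible and the depleted probes made up 5.2% of them. MeDIP uses an antibody against methylated cytosine to pull DNA fragments out of sheared genomic DNA, and the pulled-down DNA is hybridised with the untreated input. The yield of a fragment is known to depend both on how much of its CpG is methylated and on how many CpG sites it holds. A low ratio therefore does not by itself tell an unmethylated stretch from one with few CpG sites, and base composition was not analysed here. Since the rule used the ratio on all arrays, the low level of these probes is a description and not a result. Chromosome position, probe length and neighbouring probes were not used by it.

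All samples were pancreatic tissue of 12-week-old mice, with no treatment or genotype of the offspring named in the labels. Per the labels, the mothers of 3 samples had glucose intolerance (arrays GI1 to GI3, by replicate number). The titles of the other 3 (arrays NT1 to NT3) give normal glucose tolerance without naming the mother, and it is taken here as hers. Each array held immunoprecipitated DNA in Cy5 and input DNA of the same sample in Cy3. Whether samples within a group are separate animals or litters is not in the labels, so the spread that p-values rest on may be technical. The 3 glucose intolerance arrays shared 1 scan, NT1 had a scan of its own and NT2 and NT3 shared another, so scan and group cannot be told apart. The scanner voltage for Cy5 was 359 on each glucose intolerance array and 394, 421 and 421 on NT1 to NT3. Input was well above background at 71.0% to 78.7% of probes on GI1 to GI3 and 85.5% to 92.4% on NT1 to NT3. A methylation array without gene names gives no marker of the tissue. Probe coordinates are on build mm9, and no gene is named and no sequence printed, because the gene and promoter tables used here are on GRCm38.p6 and no coordinates were converted.

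The depleted probes lay far below the array median on all arrays, but by unequal amounts. Their median ratio was -3.43, -2.20 and -2.94 log2 units on GI1 to GI3. On NT1 to NT3 it was -3.90, -2.70 and -2.91. GI2 was thus the least depleted array and NT1 the most depleted one, and the groups overlapped. The other 93207 eligible probes had medians between -0.0031 and 0.12 on the same arrays. GI2 was the highest of the 6 arrays at 57.2% of depleted probes and so most often decided whether a probe met the rule. NT1 was the lowest array at 60.1% of them. Without GI2, 6928 probes met the rule over the other 5 arrays.

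**Figure D1:**
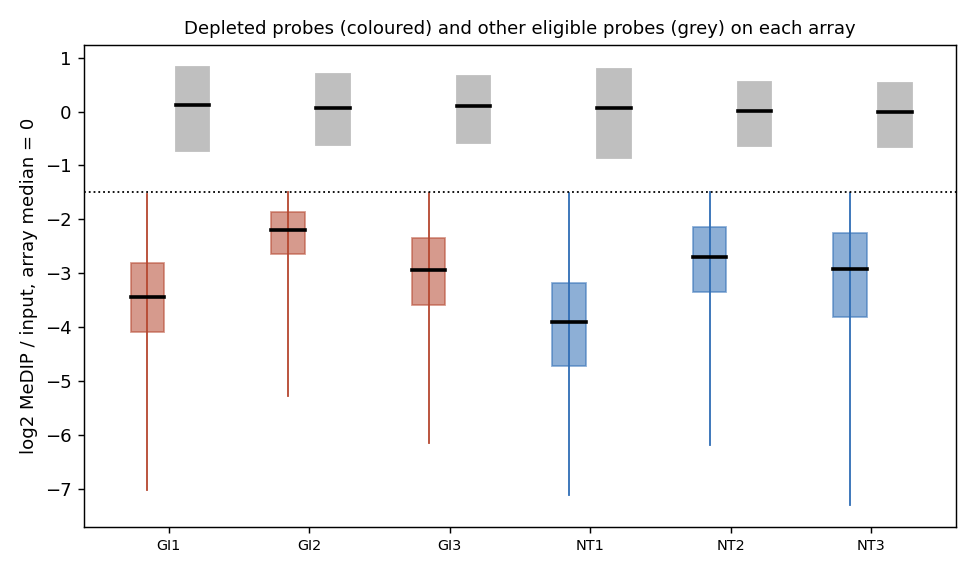
Log2 MeDIP over input ratio (y axis, array median at 0) on each array (x axis) for the 5113 depleted probes (coloured box, quartiles; thick line, median; thin line, lowest to highest) and the other 93207 eligible probes (grey box, quartiles and median). The dotted line is the threshold of -1.5; the coloured boxes are highest on GI2, with a median of -2.20, and lowest on NT1, with -3.90.

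The gap to the other probes lay mostly in the MeDIP channel. The median processed MeDIP signal of the depleted probes was 128, 318 and 153 units on GI1 to GI3 and 113, 187 and 131 units on NT1 to NT3. For the other eligible probes it was between 1110 and 1289 units. In the input channel the depleted probes were equal to or brighter than the others, by 0.01 to 0.67 log2 units at the median, with the smallest gap on NT3 and the largest on NT1. A brighter input lowers the ratio, so this too is partly built into the rule.

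Many of these MeDIP spots were at the limit of the scanner. They were well above background for 39.8%, 74.7% and 42.7% of depleted probes on GI1 to GI3 and for 41.5%, 50.1% and 36.9% on NT1 to NT3, against at least 94.7% of the other eligible probes on every array. Of the 5113 probes, 1378 (26.95%) had a MeDIP spot well above background on all 6 arrays and 1167 (22.8%) on none. For the latter the ratio says only that MeDIP was not well above background, and its depth is not a measured level. When the lowest MeDIP signal called well above background on an array was put in for each dim spot there, 3577 probes (70.0%) still met the rule. The 1378 probes measured in both channels had median ratios of -2.95, -2.09 and -2.51 on GI1 to GI3 and -3.26, -2.34 and -2.54 on NT1 to NT3, the same order of arrays at the extremes. Their input was 2.60 log2 units above the array median at the median, against -0.34 for the probes with no measured MeDIP spot.

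Among themselves the depleted probes ran from a mean over 6 arrays of -5.57 to -1.59, with a median of -3.02. A threshold of -2 on every array was met by 2493 of them, one of -3 by 315 and one of -4 by 10. The spread over the 6 arrays was wide, with a median SD of 0.74 log2 units per probe against 0.35 for the other eligible probes. Pairs of arrays correlated at r = 0.16 to 0.80 across the depleted probes and at 0.75 to 0.95 across all eligible probes. These correlations are across probes, which are not independent replicates, and the rule narrows the range of the first.

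The lowest mean belonged to probe Ch_220697_0106963 on chromosome 4 at 73329160 to 73329219. Its ratio was -6.47, -2.54 and -5.76 on GI1 to GI3 and -7.06, -4.74 and -6.87 on NT1 to NT3. Its MeDIP spot was well above background on 1 array only, so on the others these depths are not measured levels. The probe next in order, Ch_220697_0156961 on chromosome 8 at 125896998 to 125897054, had a mean of -5.54 with 1 array measured. Probes Ch_220697_0009533 (chromosome 11 at 29274601), Ch_220697_0121808 (chromosome 5 at 130417238) and Ch_220697_0102355 (chromosome 3 at 129534707) followed the same pattern with means of -5.51, -5.48 and -5.41 and 0, 1 and 1 measured arrays. The exception among the 6 lowest was Ch_220697_0150265 on chromosome 8 at 19728349 to 19728406. Its MeDIP spot was well above background on all 6 arrays and its input was 5.54 log2 units brighter than the median eligible probe. There the ratio was -6.33, -3.69 and -5.50 on GI1 to GI3 and -5.96, -5.17 and -5.95 on NT1 to NT3. It held the deepest depletion among the 6 lowest probes that was measured in both channels on every array.

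At the threshold the choice of members rested on small differences. Just inside were Ch_220697_0031175, Ch_220697_0066603 and Ch_220697_0041660, whose highest array was at -1.50031, -1.50039 and -1.50047. Just outside were Ch_220697_0087203, Ch_220697_0024717 and Ch_220697_0149112, at -1.49974, -1.49978 and -1.49986. The first of these outside probes had a mean of -3.60 and was kept out by GI2 alone. In all, 634 members had their highest array within 0.1 of the threshold, and 790 other probes lay as near on the far side.

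Longer probes were depleted far more often. Eligible probes were 45 to 60 nt long, and of 57394 eligible probes of 45 nt 457 (0.796%) were depleted. The share was 7.13% at 50 nt (212 of 2973), 13.3% at 55 nt (216 of 1619) and 33.3% at 60 nt (1617 of 4862). It was higher at each added nucleotide from 45 to 60. The 60 nt share moved with the processing: it was 17.8% with dim MeDIP spots raised, 12.3% with no filter on input, 6.28% with both channels above background, 6.66% in the authors' deposited table and 1.09% with normexp background correction. At 45 nt the same settings gave 0.720%, 0.639%, 0.564%, 0.0540% and 0.0488%, below the 60 nt share in each. The depleted probes had a median length of 56 nt against 45 nt for the other eligible probes, and 31.6% of them were 60 nt long against 3.48%. The median ratio of all eligible probes went the same way, from 0.33 at 45 nt to -1.88 at 60 nt. Most of this lay in the MeDIP channel, whose median was 1.27 log2 units above that of the array at 45 nt and at -1.78 from it at 60 nt, while input was 0.87 and 0.02.

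The gradient was present on each array. The median ratio of 60 nt probes was -2.15, -1.39 and -1.77 on GI1 to GI3 and -2.63, -1.57 and -1.63 on NT1 to NT3. For 45 nt probes the median lay between 0.17 and 0.47 on the same arrays, above that of 60 nt probes on each. The values of single probes overlapped: on GI2, 2.67% of 45 nt probes and 46.3% of 60 nt probes were at or below -1.5. At 60 nt, 692 depleted probes had no measured MeDIP spot on any array, and at 45 nt 317 of the 457 had one on all 6. The base composition of the probes, which a design may tie to their length, was not analysed here, so its part in this gradient was not tested.

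**Figure D2:**
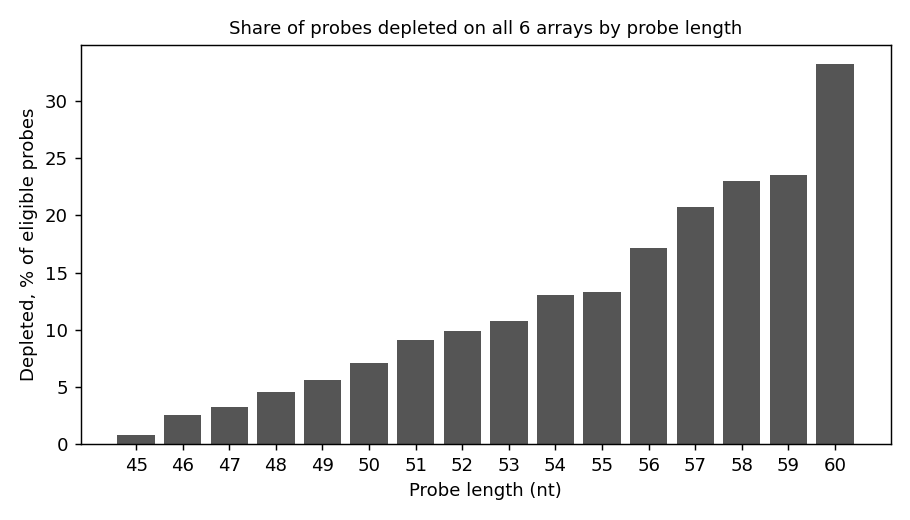
Depleted probes as a percentage of eligible probes (y axis) at each probe length in nucleotides (x axis). The share is 0.796% at 45 nt and 33.3% at 60 nt.

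Input brightness changed the share as well, in the direction that the ratio builds in. In the 10% of eligible probes with the dimmest input 4.36% were depleted and in the brightest 10% 8.89%, although the brightest probes were short (median 45 nt against 48 nt). Within probes of 60 nt the share was 22.7% in the dimmest of 5 equal groups and 51.4% in the brightest, and within probes of 45 nt it was 0.157% and 2.34%. At the bright end, 804 depleted probes (15.7%) had an input at least 2 log2 units above the median eligible probe, against 8.77% of the other eligible probes. Across the depleted probes, input and mean ratio were only weakly related (r = -0.09 over 5113 probes that share arrays).

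By chromosome, the share of depleted probes was highest on chromosome 7, at 695 of 9521 (7.30%). Chromosomes 14 (6.13%), 13 (6.09%) and 4 (5.94%) came next, and chromosomes 15 (3.57%) and 12 (3.70%) were lowest. Chromosomes differed in their probe lengths. With the share of each length taken over all eligible probes, chromosome 7 would hold 570 depleted probes and chromosome 4 319, against 695 and 387 found. Chromosome 13 would hold 232 and held 230. On chromosome 15 the 147 found stood against 167. Without the 8 windows described next, chromosome 7 was at 6.17% and chromosome 4 at 5.19%. Chromosome 7 had the highest share under all 20 settings in which the rule was applied, the main one included.

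**Figure D3:**
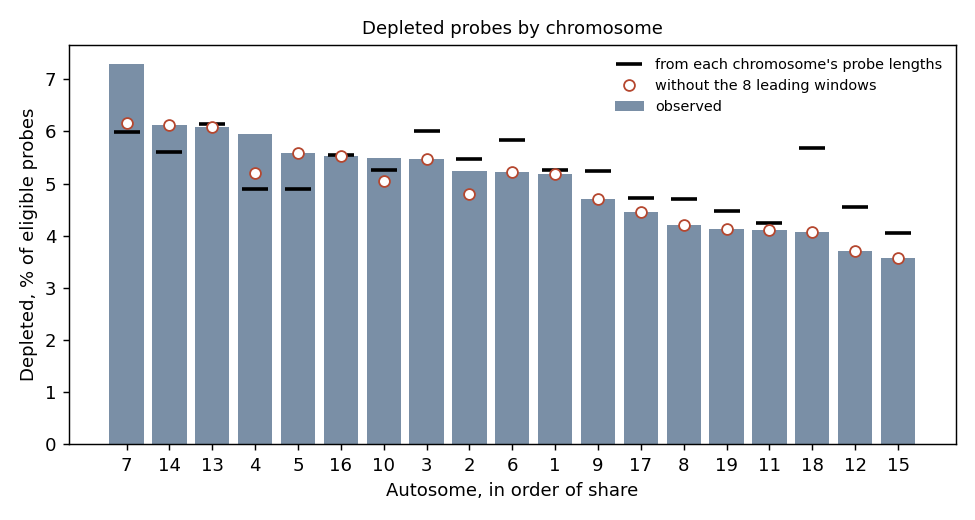
Depleted probes as a percentage of eligible probes (y axis) on each autosome, in order of share (x axis). Bars are the observed share, dashes the share that the chromosome's probe lengths give, and open circles the share without the 8 leading windows; chromosome 7 leads at 7.30% and is at 6.17% without them.

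Hot spots were counted in fixed 1 Mb windows. Depleted probes lay in 1504 of 2185 windows with an eligible probe, and 82 windows held 10 or more. The 8 windows with the most held 261 of them, 5.10% of all depleted probes, in 0.854% of the eligible probes. They held 14.2% of the 253 probes that met the rule with normexp and 11.3% of the 778 that did in the authors' deposited table. Together 31.1% of the 840 eligible probes in these windows were depleted, and 261 stood against 111 that their lengths would give. The windows were picked for their count of depleted probes, so an excess over their lengths is partly built in. The shares under other processing come from the same arrays and are not separate support.

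A block of 3 adjoining windows on chromosome 7 led the list. The window from 21000001 to 22000000 held 47 depleted of 113 eligible probes (41.6%), against 20.7 from their lengths. Its depleted probes had median ratios of -4.68, -2.12 and -4.30 on GI1 to GI3 and -5.13, -3.75 and -4.88 on NT1 to NT3. The window from 23000001 held 42 of 97 (43.3%) and the one from 22000001 held 38 of 98 (38.8%). Probes there that missed the rule were low too. In the window from 21000001 the other 66 eligible probes had a median ratio of -2.79 over the 6 arrays, and 64 of them were below the array median. All 55 and 60 of them were so in the windows from 23000001 and 22000001. Nearly every eligible probe of this stretch was thus below the array median, and not only those counted by the rule. Long probes were common there. Probes of 60 nt made up 30.1%, 32.0% and 37.8% of eligible probes in the windows from 21000001, 23000001 and 22000001, against 6.82% over chromosome 7. Over all eligible probes, those of 60 nt had a median ratio of -1.88. The part of length in these low values was not tested.

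Chromosome 4 had 2 of the 8 windows. From 60000001 to 61000000, 29 of 58 eligible probes were depleted, against 6.59 from their lengths, the largest excess in proportion among the 8. Their median length was 52 nt, shorter than in any other of these windows. From 146000001 to 147000000, 25 of 45 (55.6%) were depleted and the MeDIP spots were well above background in 70.0% of 150 spots, the largest share among the 8. Chromosome 2 had 25 of 66 (37.9%) from 175000001 to 176000000. The window before it on chromosome 2, from 174000001, held 28 but out of 244 (11.5%), and its other probes had a median of -0.07, near the array median. On chromosome 10 from 129000001 the count was 27 of 119 (22.7%), 1.65 times the number their lengths would give. These windows on chromosomes 2 (from 174000001) and 10 had the lowest shares of the 8.

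In the 8 windows the depleted probes had a median ratio of -3.88 against -2.99 for depleted probes elsewhere. Their input was 1.51 log2 units above the median eligible probe, against 0.27 elsewhere. The other eligible probes of the windows had an input of 0.47 and a ratio of -1.08, against 0.05 for the other eligible probes outside. The bright input was seen on each array, at 1.58, 1.58 and 1.09 log2 units above the median eligible probe on GI1 to GI3 and 1.71, 1.58 and 1.44 on NT1 to NT3. GI2 was the highest array in all 8 windows and NT1 the lowest in all 8. With windows of 500 kb or 2 Mb, 6 of the 8 leading windows overlapped those named here in each case. Among windows with 20 or more eligible probes the share was highest on chromosome 5 from 95000001 to 96000000, at 19 of 29 (65.5%), which did not reach the list by count. At the other end, 219 of 1441 such windows (15.2%) held no depleted probe.

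**Figure D4:**
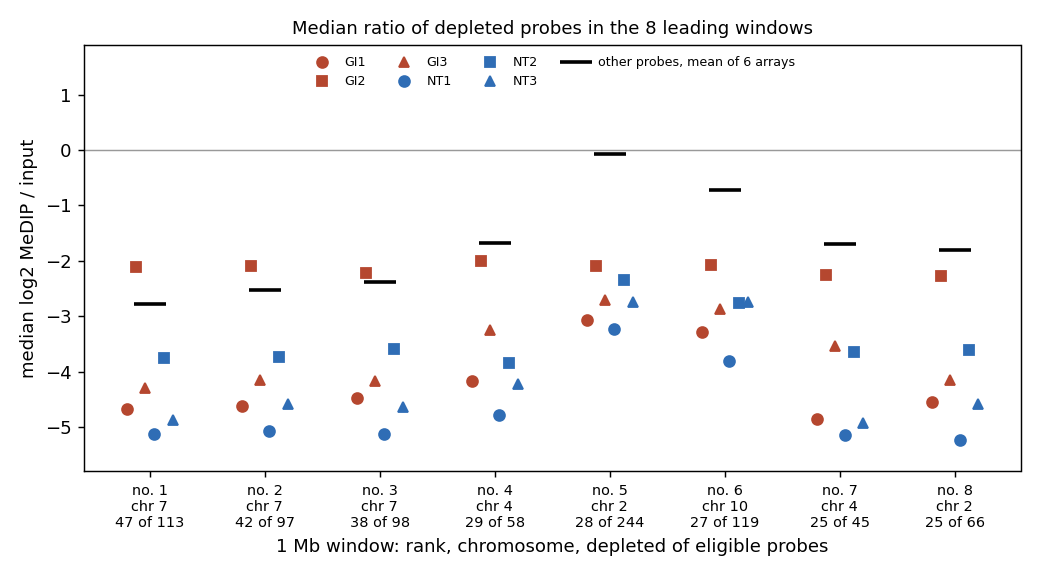
Median log2 MeDIP over input ratio (y axis) of the depleted probes in each of the 8 leading 1 Mb windows (x axis, by rank) on the 3 glucose intolerance arrays (red) and the 3 normal tolerance arrays (blue), with the median of the other eligible probes of the window (black dash). GI2 (red square) is the highest array in all 8 windows and NT1 (blue circle) the lowest.

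Most depleted probes stood alone. Another depleted probe started within 500 bp of 931 of the 5113 (18.2%), against 7.72% of all eligible probes. Among 60 nt probes the figures were 19.98% for depleted and 14.3% for other probes, and among 45 nt probes 15.5% and 5.47%. Chained at this distance, the probes formed 4182 singles, 378 pairs, 39 runs of 3, 9 of 4, 3 of 5 and 1 of 7. The longest run lay on chromosome 4 at 146512936 to 146514527, inside one of the windows above. Its mean ratio was -4.87, -2.36 and -4.06 on GI1 to GI3 and -4.81, -3.93 and -3.81 on NT1 to NT3. An eighth probe in the span was eligible and missed the rule, with a mean of -1.38 against -4.96 to -2.68 for the 7 depleted ones. In the same window a run of 4 at 146505150 to 146506098 was the deepest of the 8 leading runs, with a mean of -4.47.

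The 3 runs of 5 lay on chromosome 1 at 87495816 to 87496962, on chromosome 4 at 145206217 to 145207187 and on chromosome 14 at 45344790 to 45345948. Their means over 6 arrays were -4.21, -4.11 and -3.06. The input of the chromosome 1 run was 3.21 log2 units above the median eligible probe, and 23 of its 30 MeDIP spots were well above background. Its ratio was -4.98, -2.22 and -3.96 on GI1 to GI3 and -5.42, -3.52 and -5.16 on NT1 to NT3, so it was low on all arrays and the groups overlapped.

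A set of 3 runs of 4 on chromosome 14 shared one layout. They lay at 43376243 to 43377122, 43693610 to 43694489 and 44185179 to 44186058, each spanned 880 bp, and in each the probes started 0, 206, 410 and 820 bp from the first. Probe lengths were equal across the runs at the last 3 places and 56, 56 and 57 nt at the first. Probes at the same place had nearly equal values. At the first place the mean ratios of the 3 runs differed by at most 0.07 log2 units, at the second by 0.14, at the third by 0.04 and at the fourth by 0.53. Between places they differed more, from -2.84 at the first place to -4.74 at the second in the run at 43376243. Members that may share sequence in this way are not separate observations; their sequence was not analysed here.

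Neighbours of depleted probes were low as well. Distance was not used by the rule, but neighbours that were depleted themselves were low because of it. The nearest eligible probe on either side, where its start lay 200 to 300 bp away, had a median ratio of -0.81 next to a depleted probe (3894 pairs) and 0.03 next to another eligible probe (70988 pairs). It was depleted itself in 14.9% and 4.67% of pairs. At 500 bp to 1 kb the medians were -0.38 and -0.04, and beyond 100 kb they were -0.30 and -0.03. In between, they were -0.29 and -0.15 at 1 to 5 kb, and -0.36 and -0.11 at 5 to 100 kb. The gap was thus largest for near probes and smallest at 1 to 5 kb, and it did not fall steadily with distance. Within 500 bp, neighbours that missed the rule had a median of -0.46. Neighbours of other eligible probes at that distance, depleted ones included, had 0.04. Even so, 28.5% of the neighbours within 500 bp of a depleted probe were above the array median, against 51.5% next to other probes. Neighbours share arrays, fragments and probe design, and these values are a description.

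**Figure D5:**
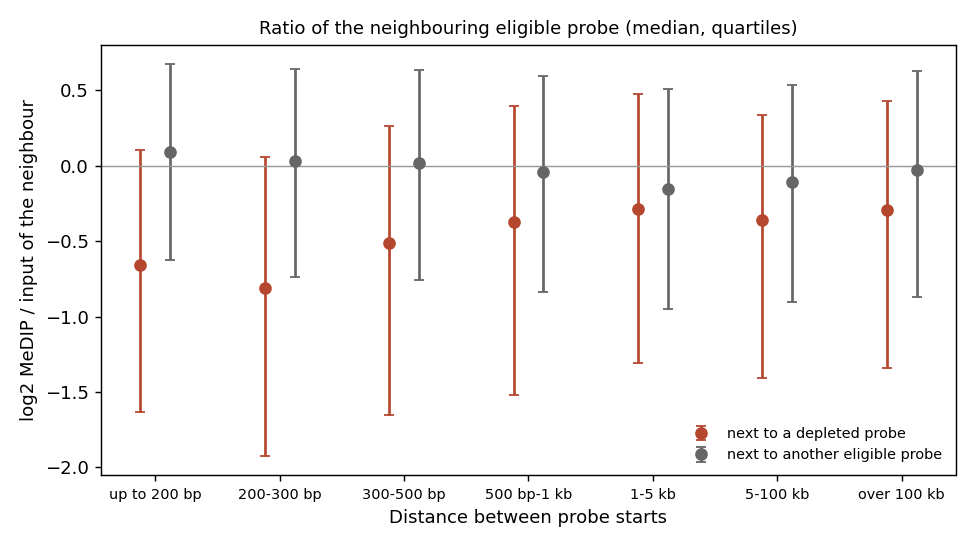
Log2 MeDIP over input ratio of the neighbouring eligible probe, as the mean of 6 arrays (y axis; point, median; bars, quartiles), by distance between probe starts (x axis), next to a depleted probe (red) or another eligible probe (grey). Next to depleted probes the median is -0.81 at 200 to 300 bp and -0.30 beyond 100 kb.

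In the authors' deposited table, centred in the same way, the depleted probes were low but less so. Their median was -1.54, -1.18 and -1.53 on GI1 to GI3 and -1.53, -1.53 and -1.42 on NT1 to NT3. All 6 values of the authors' deposited table were below the array median for 5102 of the 5113 probes (99.8%) and for 24.3% of the other eligible probes. Only 778 eligible probes met the rule in the authors' deposited table, and 760 of them were among the 5113. In that table the median over the 6 arrays was -1.39 for single probes, -1.90 for probes in runs of 2 or more and -2.28 in runs of 3 or more. In the scanner ratios single probes and probes in runs were closer, at -2.98 and -3.24.

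The comparison of the study is between offspring of dams with and without glucose intolerance. At the depleted probes the ratio was higher with maternal glucose intolerance by a median of 0.33 log2 units, with quartiles of -0.08 and 0.77 and a median standard error of 0.45 per probe. Over all eligible probes the median difference was 0.13. In limma with Benjamini-Hochberg adjustment over the 115581 probes tested, 0 of the 5113 passed an adjusted p of 0.05, where 0.000865% of all probes did. An unadjusted p under 0.05 was reached by 799 (15.6%), against 15.8% of all probes tested. Of these, 673 (13.2%) were higher and 126 (2.46%) lower with glucose intolerance, against 10.3% and 5.53% of all probes. This balance turned with quantile normalization, where 461 were higher and 880 lower, against 10.3% and 10% of all probes, and without NT1, where 396 were higher and 528 lower, against 18% and 10.4%. With 1 array left out, the count itself ran from 499 without GI3 (all probes, 11%) to 1356 without NT2 (13.6%). The count was 276 with scan as a random block (5.22%) and 159 with a trended, robust variance (17.3%). Neither setting called a depleted probe after adjustment. With adjustment, scan as a random block called 0 of all 115581 probes tested and the trended, robust variance 747. The groups did not overlap at 423 depleted probes that were higher (8.27%) and 96 that were lower (1.88%), against 13.3% and 8.13% of eligible probes. The rule used all 6 arrays, so these shares are not independent of it. In the authors' deposited table the median difference over the depleted probes was 0.08, against 0.09 over all eligible probes.

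The median difference rested on 2 arrays. Without GI2, the least depleted array, it was 0.04, and without NT1, the most depleted, it was 0.0086. Leaving out both gave -0.28, a setting chosen after seeing the data. Without any other single array it was between 0.36 and 0.58. Over all eligible probes the median difference stayed between 0.11 and 0.14 with any 1 array left out. Quantile normalization also turned the sign, to -0.08, against 0.05 over all probes tested. With loess the median was 0.21, against 0.0059 over all probes tested, and with array weights it was 0.11, against 0.14. With dim MeDIP spots raised as above the median was 0.15, against 0.12 over all probes tested. Over the 1378 probes with both channels measured it was 0.21, against 0.13 over all probes so measured. The same 2 arrays set the differences in the 8 windows, which had medians of 0.25 to 1.06 and of -0.39 to 0.14 without both arrays. In the leading chromosome 7 window the array medians averaged -3.70 ± 1.38 in the GI arrays against -4.59 ± 0.74 in the NT arrays (SD, n = 3 each), so the gap was smaller than the SD within the glucose intolerance group. Without NT1, 84 depleted probes passed the adjusted threshold, 32 of them higher, against 3.32% of all probes tested in both directions together. Each group then lay on 1 scan. Several other settings called depleted probes. With normexp background correction limma called 546 of the depleted probes, against 6.01% of all probes, and 144 with quantile normalization, against 1.48%. In the authors' deposited table it called 268, against 4.81%, and with array weights 229, against 6.92%. With dim MeDIP spots raised it called 1, against 0.00519%, and 4 of the 1378 probes with both channels measured, against 0.211%. With the replicate number as a block it called 557, against 3.54%, although the numbers were not shown to pair the arrays.

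Of the depleted probes with a higher ratio in the glucose intolerance group, the lowest p belonged to Ch_220697_0094373 on chromosome 2 at 175099601 to 175099660, in one of the 8 windows. Its ratio was -3.74, -3.34 and -4.18 on GI1 to GI3 and -6.16, -5.83 and -5.70 on NT1 to NT3. The groups did not overlap, and the difference was 2.14 with a standard error of 0.27 (adjusted p 0.104 in limma). The MeDIP spot was not well above background on any array, so no fold is given. Its input signal, measured on all arrays, had a group difference of -2.02 on the log2 scale, and its dim MeDIP signal one of -0.003. At Ch_220697_0100688 on chromosome 3 at 102007392 to 102007446 the ratio was -2.39, -2.33 and -2.76 on GI1 to GI3 and -4.22, -3.98 and -4.26 on NT1 to NT3 (adjusted p 0.104 in limma). MeDIP was well above background on 2 of 3 and 0 of 3 arrays, and against that background the ratio was at least 1.30-fold higher. This bound holds the dim glucose intolerance spot at its own value. For Ch_220697_0053638 on chromosome 17 at 24796509 to 24796568 the difference was 1.62 (adjusted p 0.104 in limma). With its normal tolerance MeDIP spots, all dim, raised to the signal well above background, no difference was left, so no fold is given.

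In the other direction, Ch_220697_0065363 on chromosome 19 at 5846062 to 5846112 had a ratio of -3.29, -3.67 and -4.15 on GI1 to GI3 and -1.64, -1.94 and -1.58 on NT1 to NT3. MeDIP was well above background on 0 of 3 and 3 of 3 arrays, and the ratio was at least 2.49-fold lower (adjusted p 0.104 in limma). At Ch_220697_0122008 on chromosome 5 at 135115698 to 135115751 the MeDIP spot was well above background on all 6 arrays. The ratio was -3.69, -3.40 and -3.86 on GI1 to GI3 and -2.502, -2.15 and -1.78 on NT1 to NT3, a difference of -1.51 with a standard error of 0.25 (adjusted p 0.110 in limma). Its MeDIP signal differed by -0.999 log2 units and its input by 0.63. In the authors' deposited table its difference was -1.67. Ch_220697_0037847 on chromosome 14 at 68701562 to 68701621 differed by -2.10 (adjusted p 0.114 in limma), with MeDIP well above background on 0 of 3 and 2 of 3 arrays. With the glucose intolerance spots raised it was at least 1.31-fold lower, a bound that holds 1 dim normal tolerance spot at its own value. At each of these 6 probes the groups did not overlap, which their choice by lowest p favours. None passed the adjusted threshold as fitted. The settings named next refit the same arrays at probes already chosen by p, so a pass there is not separate support. All 6 passed in limma without NT1 (adjusted p 0.0368 to 0.0369), with array weights (adjusted p 0.0182 to 0.0189) and with the replicate number as a block (adjusted p 0.0140 to 0.0220). The 3 lower probes also passed in the authors' deposited table (adjusted p 0.0276 to 0.0460 in limma) and with quantile normalization (adjusted p 0.0258 to 0.0392 in limma). Ch_220697_0094373 passed with normexp (adjusted p 0.0166 in limma), and Ch_220697_0122008 among probes with both channels measured (adjusted p 0.0454 in limma). With scan as a random block the adjusted p was 0.931 for each of the 6 in limma.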

How the data were processed

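Per the file headers, Agilent Feature Extraction 11.0.1.1 wrote the authors' deposited scanner tables, which held spot intensity values of both dyes, background-subtracted and linearly dye-normalized, with probe positions on mm9. A deposited log10 ratio of red over green was used only as a check. Signal above background stood in for depth. The authors' deposited series table is on a log2 scale, with its processing not given in the sources used here. From the files, log2 of processed Cy5 over processed Cy3 was centred on the median of the 174638 non-control probes of each array; loess and quantile normalization were alternatives. Outlier spots were missing in the fit, which took every probe with input well above background on all 6 arrays. Differences are glucose intolerance minus normal tolerance, tested with limma 3.58.1 in R 4.3.3 (lmFit, eBayes, Benjamini-Hochberg), checked on simulated data. Normexp (offset 50) used median spot signals in place of the planned means. Windows (1 Mb) and runs (starts at most 500 bp apart) were ranked by member count, the first 8 named; of single probes, the 6 lowest, the 3 of lowest p in each direction and the 3 on each side of the threshold were named. Other alternatives changed background, filters, thresholds, model and arrays. The members and these rules were chosen with earlier results of these data known. Deviations from group means of arrays with equal replicate number correlated at 0.49, 0.45 and 0.02, so numbers were not taken as pairs. The gene family counts of the plan were not run, since no probe was paired with a gene.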

Additional observations from a re-analysis of the deposited data

How the results depend on the processing

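The number of depleted probes was 253 with normexp, 778 in the authors' deposited table, 1378 with both channels above background, 10052 at a threshold of -1, 2493 at -2 and 12901 with the mean over the 6 arrays in place of each array; leaving out 1 array gave 5272 to 6928. The share in runs, 18.2% in the report, was 3.95% with normexp, 20.04% with loess, 21.3% with quantile normalization, 23.8% in the authors' deposited table, 16.1% with dim MeDIP raised, 20.4% with outlier spots kept, 20.7% with no filter on input and 9.14% with both channels above background. It was 26.6% and 12.8% at thresholds of -1 and -2, 32.6% with the mean, 12.3% and 26.7% at gaps of 300 and 1000 bp, 26.7% without GI2 and NT1 and 18.6% to 25.7% without 1 array. The share on chromosome 7, 7.30% in the report, was, for the same settings as far as they moved it, 0.504% (normexp), 8.23% (loess), 8.77% (quantile), 1.65% (authors' deposited table), 5.61% (dim raised), 5.84% (no filter on input), 2.68% (both channels), 13.8% and 3.95% (thresholds of -1 and -2), 18.04% (mean), 10.9% (without GI2 and NT1) and 7.09% to 10.8% (without 1 array). The cause was not tested. Of the 5113 probes, limma called 0 in the report, where 0.000865% of all probes tested passed. It called 546 with normexp (all higher), against 6.01% of all probes, and 144 with quantile normalization (23 higher), against 1.48%. In the authors' deposited table it called 268 (151 higher), against 4.81%, and with array weights 229 (146 higher), against 6.92%. With dim MeDIP raised it called 1, against 0.00519%, and 4 of the 1378 with both channels above background, against 0.211%. Leaving out 1 array gave 0 to 84, the 84 without NT1, against 3.32%. The cause was not tested. The shares of all probes beside limma calls here count both directions together and, under the changed settings, were not split by direction. With the replicate block limma called 557 (525 higher), against 3.54% of all probes. The numbers were not shown to pair the arrays: not every array correlated best with its own number. The median difference was 0.0086 to 0.58 without 1 array and -0.081 with quantile normalization, where all probes tested had 0.053. It was -0.28 without GI2 and NT1, a setting added after seeing the data. The number of arrays and dim MeDIP spots limit the precision.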

Other observations

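Sex chromosomes were left out by the rule. With the same conditions, 230 of 3853 eligible probes on chromosome X (5.97%) and 6 of 48 on chromosome Y (12.5%) were depleted on all 6 arrays.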
